A study of Mus musculus with 12 samples.

Results

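Interferon-stimulated genes are genes whose transcription rises when a cell receives an interferon signal, and 44 of them were followed here across 12 libraries of mouse colon RNA. They were taken by name from a fixed list, which was chosen with earlier results of these data known. They make up 44 of the 22377 genes with a value in the deposited expression table. Every one of the 44 was above 0 in every library. By treatment label there are 4 control, 4 DSS and 4 FGF1 libraries. DSS stands for dextran sulfate sodium, a polymer that damages the colon lining and is widely used to model bowel inflammation. FGF1 is fibroblast growth factor 1; the design text speaks of supplying the recombinant protein to mice with inflammatory bowel disease, but the sample labels say only FGF1 and do not state that these mice also received DSS. Strain, age, sex, dose and duration are not in the labels. No label states that samples of a group came from separate animals, so the p-values below measure only the spread between these samples, which may be technical.

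Type I and type III interferons act through receptors coupled to the kinases JAK1 and TYK2, and drive a complex that contains STAT2 and IRF9 onto a DNA element called the interferon-stimulated response element (ISRE). Interferon gamma acts through JAK1 and JAK2 and raises transcription through a second element, the gamma-activated site (GAS). In the intestine the products of these genes restrict viruses and intracellular bacteria, and many are transcribed at a low resting level in the absence of infection.

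A gene's level is given as FPKM (fragments scaled by transcript length and by library size), summed over the transcripts listed for it. A score is the mean of log2(FPKM + 1) over a set of genes in 1 library. Fold changes are differences on the log2(FPKM + 1) scale with their standard error (SE), which understate the change of weakly expressed genes, and a gene was called at a Benjamini-Hochberg adjusted p under 0.05 in limma, over the 12578 genes that reached 1 FPKM in 4 or more libraries. Of the 44 members, 40 passed that filter. Oas2, Mx2, Usp18 and Ifi44 did not and were not tested. A gene is said to have fallen or risen only where it was called lower or higher. Values are listed in the order of library numbers 1 to 4. All levels come from whole tissue, in which fewer cells of a type and less RNA per cell cannot be told apart.

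Some libraries stood apart in their tissue makeup. Between 11190 and 12721 genes reached 1 FPKM in a library. DSS 3 and DSS 4 had the lowest summed levels of 8 endothelial and 8 fibroblast marker genes, and control 3 and FGF1 3 had the highest summed level of 8 smooth muscle marker genes. Results that rest on these libraries are given with and without them. Epithelial markers, summed over 10 genes, were at 6512 to 7168 FPKM in control, 6960 to 8856 in DSS and 7104 to 9082 in FGF1, so the defining markers of colon lining were present throughout.

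The score over all 44 members was 2.87, 3.04, 2.90 and 3.18 in control 1 to control 4, 2.61, 2.77, 2.76 and 2.59 in DSS 1 to DSS 4, and 2.79, 2.78, 3.03 and 3.16 in FGF1 1 to FGF1 4. The group means were 3.00 ± 0.14, 2.68 ± 0.10 and 2.94 ± 0.19 (SD, n = 4 each). On the deposited scale all 4 DSS libraries lay below every other library, by a narrow margin against FGF1 1 and FGF1 2, while control and FGF1 overlapped. That separation depended on the scaling: with median-of-ratios size factors applied to the FPKM values, the score ran from 2.79 to 3.11 in control, from 2.51 to 2.85 in DSS and from 2.78 to 3.16 in FGF1, and the groups overlapped. Among the 44 members, the group mean was lowest in DSS for 33, highest in control for 25 and highest in FGF1 for 17. Control 4 held the highest value of the 12 libraries for 13 members and FGF1 4 for 9, while DSS 1 and DSS 4 each held the lowest for 10.

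**Figure D1:**
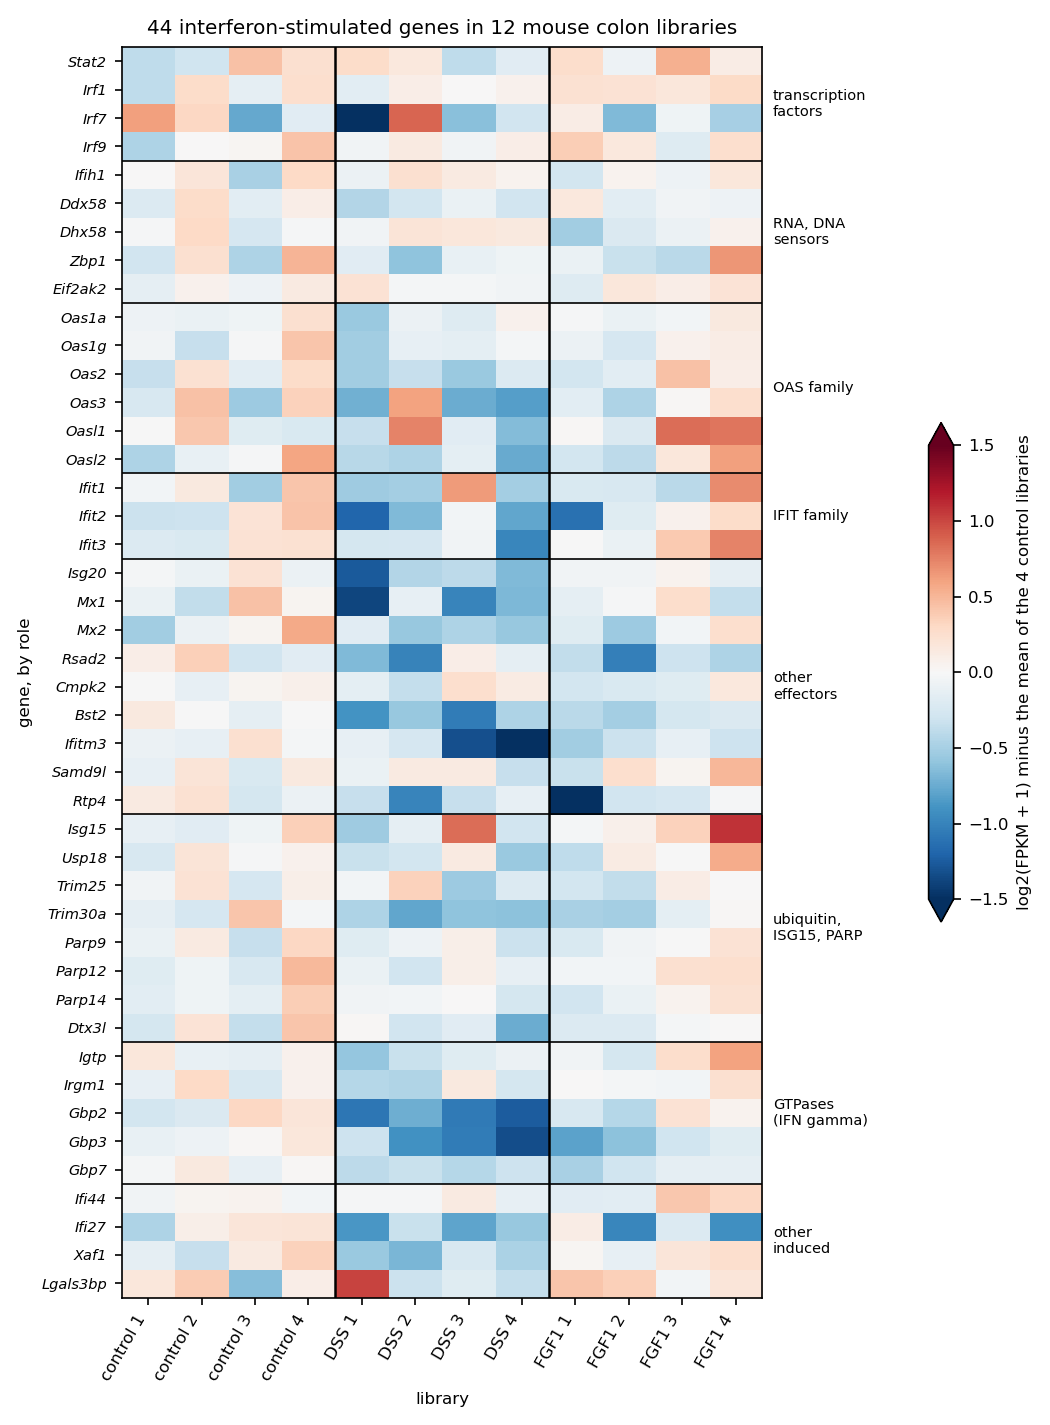
Each of the 44 members (rows, by role) in each of the 12 libraries (columns), as log2(FPKM + 1) minus the mean of the 4 control libraries; colours saturate at the ends of the scale. Blue cells fill the DSS columns for Gbp2, Gbp3, Gbp7, Bst2, Isg20 and Trim30a, while the rows of transcription factors and sensors show no common direction.

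**Figure D2:**
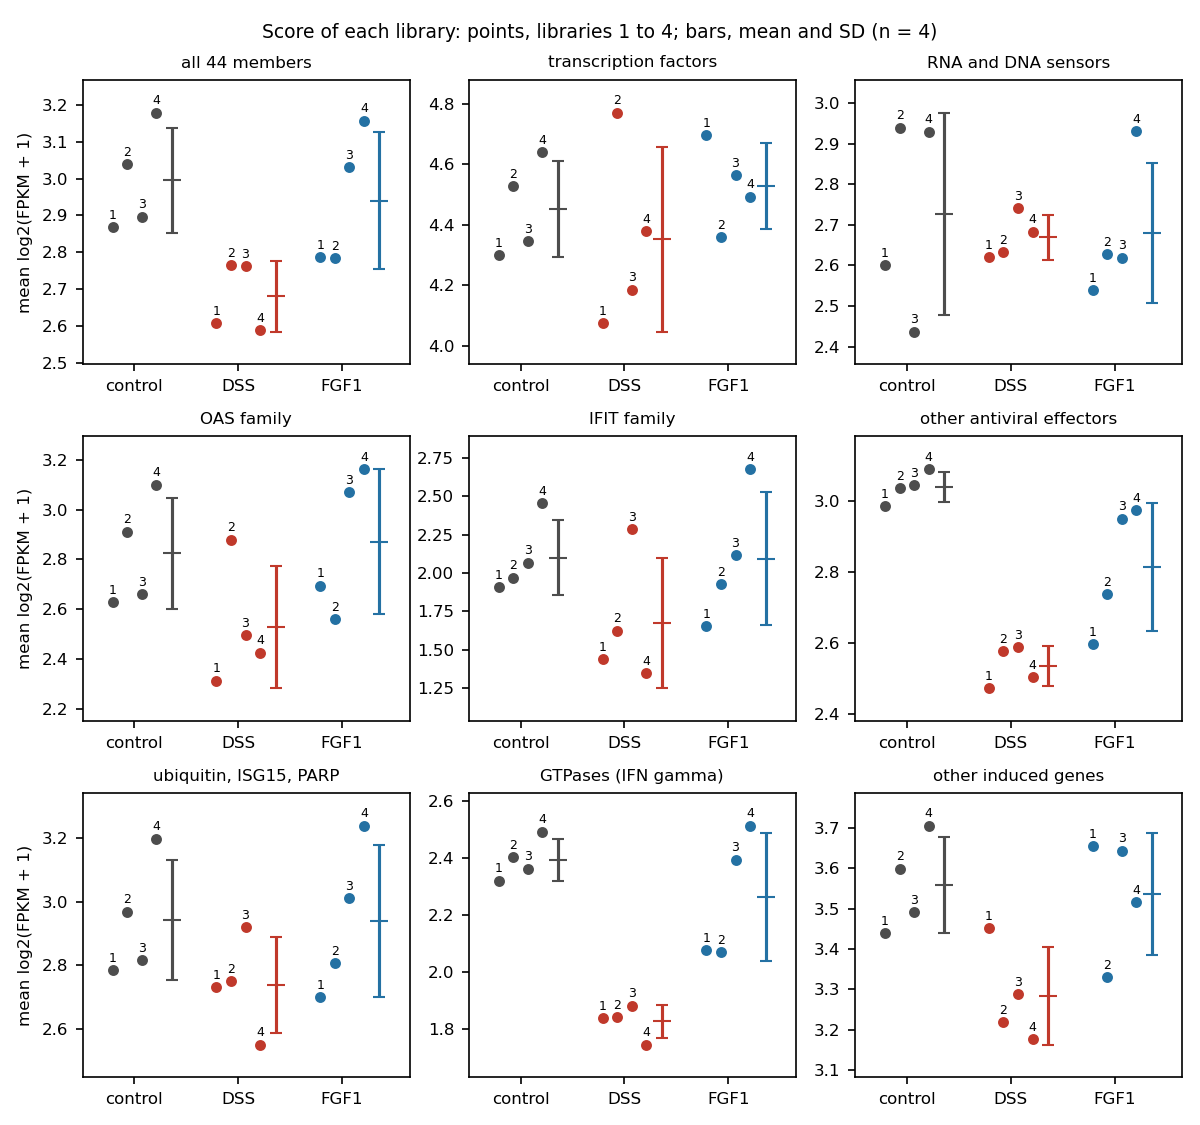
Score of each library (mean log2(FPKM + 1), vertical axis, which does not start at 0) for all 44 members and for 8 role groups; points are libraries 1 to 4, bars the mean and SD. The interferon gamma GTPases show the DSS libraries at 1.75 to 1.88, below all control (2.32 to 2.49) and FGF1 libraries (2.07 to 2.51).

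DSS libraries were first set against control, to see how these genes stand in the colon of DSS mice. Of the 40 tested members, 5 fell in DSS and 0 rose: the guanylate-binding proteins Gbp2 and Gbp3, the virion tether Bst2, the exonuclease Isg20 and the ubiquitin ligase Trim30a. Across all genes tested, 10.1% were called lower, 2.23% were called higher and 12.3% were called in either direction, so the share of members that fell is near the background and is not a result about the set. At an unadjusted p under 0.05, 10 members were lower and 0 higher, against 20.5% and 7.21% of all genes (27.7% in either direction). The median log2 fold change of the 40 members was -0.26, against -0.07 over all genes, and 34 of 40 lay below 0, against 59.7% of all genes. Median-of-ratios scaling moved the median of all genes from -0.07 to 0.05 and that of the members to -0.14. With it, 25 of the 40 members lay below 0 against 43.1% of all genes, 4 members fell and 0 rose, and 7.84% of all genes were called lower and 5.4% higher.

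Promoter sequences of the 5 members that fell are shown first, so that the letters of both elements can be read beside the values. RefSeq promoter windows on GRCm38.p6, each from 250 bases before to 50 bases after a gene's start, were present for 34 of the 44 members. The windows were searched on both strands for the core of the ISRE, which is TTTC, any 2 bases and TTTC again, and for the core of the GAS, TTCNNNGAA. The ISRE letters occurred in 19 of the 34 members (55.9%) against 3.99% of 27025 genes with a window, or in 48.8% of 41 member windows against 3.44% of all 32851 windows. The GAS letters occurred in 9 of the 34 members (26.5%) against 9.55% of genes, or in 22.0% of member windows against 8.30% of all windows. Both were found in 6 members and neither in 12. A match is a description of the letters, not evidence of binding. The stretches shown run from position -140 to position 10 relative to the start, 5′ to 3′ on the gene's strand, with matches to either motif in capitals; Isg15, which encodes the ubiquitin-like protein of this response and was not called, is shown beside the 5 for its 3 overlapping ISRE matches.
Gbp2 (GRCm38.p6, chr3:142620523-142620672, plus strand): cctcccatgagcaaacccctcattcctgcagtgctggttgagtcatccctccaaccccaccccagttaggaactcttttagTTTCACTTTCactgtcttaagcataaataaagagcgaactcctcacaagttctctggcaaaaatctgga
Gbp3 (GRCm38.p6, chr3:142559904-142560053, plus strand): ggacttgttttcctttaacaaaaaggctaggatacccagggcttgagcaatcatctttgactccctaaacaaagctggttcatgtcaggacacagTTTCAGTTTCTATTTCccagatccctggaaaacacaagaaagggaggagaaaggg
Trim30a (GRCm38.p6, chr7:104465184-104465333, minus strand): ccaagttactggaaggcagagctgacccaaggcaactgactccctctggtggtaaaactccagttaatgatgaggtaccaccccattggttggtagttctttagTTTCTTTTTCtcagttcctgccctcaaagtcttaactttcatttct
Bst2 (GRCm38.p6, chr8:71537463-71537612, minus strand): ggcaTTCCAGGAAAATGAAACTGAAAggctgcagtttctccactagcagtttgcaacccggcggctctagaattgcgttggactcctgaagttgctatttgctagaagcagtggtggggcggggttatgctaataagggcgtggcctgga
Isg20 (GRCm38.p6, chr7:78913284-78913433, plus strand): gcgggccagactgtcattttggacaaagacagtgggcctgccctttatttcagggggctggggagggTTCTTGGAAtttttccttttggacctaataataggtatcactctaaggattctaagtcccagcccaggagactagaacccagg
Isg15 (GRCm38.p6, chr4:156200809-156200958, minus strand): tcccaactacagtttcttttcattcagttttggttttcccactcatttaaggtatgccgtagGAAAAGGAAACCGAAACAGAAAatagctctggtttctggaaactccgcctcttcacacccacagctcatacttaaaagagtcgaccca

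Gbp2, Gbp3 and Trim30a each had ISRE letters within 60 bases of the start, beginning 59 bases before it in Gbp2, 45 and 39 in Gbp3 and 36 in Trim30a. In Bst2 a GAS match beginning 136 bases before the start overlapped 2 ISRE matches, at 130 and 124. Isg20 held only a GAS match, 73 bases before the start, in 1 of its 3 windows. All 5 interferon gamma GTPases held ISRE letters, as did the 3 sensors with a window, against 1 of 4 transcription factors and 0 of 3 other induced genes. GAS letters occurred in 2 of the 5 GTPases, 1 of the 3 sensors, 1 of 4 transcription factors and 0 of 3 other induced genes.

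Members are described by role below, beginning with the 4 transcription factors, whose DSS and control libraries overlapped. STAT2 and IRF9 belong to the complex that binds the ISRE, IRF1 is induced by interferon gamma, and IRF7 amplifies type I interferon production. Irf1 measured 48.5, 77.1, 57.7 and 75.7 FPKM in control, 57.0, 68.4, 63.6 and 66.3 in DSS and 74.8, 73.8, 71.5 and 78.1 in FGF1. The FGF1 libraries all lay above the DSS libraries and were the most alike, while the control libraries spanned both. Irf7 measured 78.9, 63.4, 29.6 and 45.3 FPKM in control, 16.4, 94.1, 32.6 and 41.5 in DSS and 55.1, 31.8, 48.6 and 35.8 in FGF1. The lowest and the highest Irf7 values of all 12 libraries were both in DSS, and no other member varied as much within groups on the log2 scale. Stat2 ran from 4.41 to 9.24 FPKM and Irf9 from 6.04 to 12.02 over the 12 libraries. None of the 4 was called in any comparison.

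The 5 sensors of foreign nucleic acid also overlapped between groups. RIG-I (Ddx58) and MDA5 (Ifih1) detect viral RNA, LGP2 (Dhx58) modulates them, ZBP1 binds Z-form nucleic acid and PKR (Eif2ak2) halts translation on double-stranded RNA. Ifih1 measured 9.59, 11.01, 6.51 and 11.97 FPKM in control, 8.95, 11.5, 10.6 and 9.92 in DSS and 7.69, 9.98, 9.001 and 10.8 in FGF1. Zbp1 measured 5.38, 8.15, 4.61 and 10.04 FPKM in control, 5.87, 4.09, 6.16 and 6.39 in DSS and 6.27, 5.13, 4.84 and 11.3 in FGF1. For both genes the ranges of the 3 groups overlapped, and control 4 and FGF1 4 held the 2 highest Zbp1 values. Ddx58 lay between 4.04 and 7.26 FPKM, Dhx58 between 1.31 and 3.09, and Eif2ak2 between 4.96 and 6.94. The sensor score was 2.44 to 2.94 in control, 2.62 to 2.74 in DSS and 2.54 to 2.93 in FGF1, and no sensor was called.

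The OAS proteins make or resemble the enzymes that make 2′-5′ oligoadenylate, the activator of the RNA-degrading RNase L. Oas1a, the most abundant of them, measured 22.8, 22.6, 23.1 and 28.8 FPKM in control, 16.2, 22.7, 20.97 and 25.4 in DSS and 23.9, 22.6, 23.6 and 26.9 in FGF1. Oasl1, which restrains translation of Irf7, measured 12.1, 16.4, 10.6 and 10.2 FPKM in control, 9.28, 20.99, 10.6 and 7.33 in DSS and 12.3, 10.3, 22.4 and 21.8 in FGF1. FGF1 3, FGF1 4 and DSS 2 held the 3 highest Oasl1 values. Oas1g ran from 6.60 to 13.6 FPKM, Oasl2 from 3.42 to 10.4 and Oas3 from 0.488 to 3.00, all with overlapping groups. Oas2 was at 0.818 ± 0.368 FPKM in control, 0.356 ± 0.156 in DSS and 0.855 ± 0.421 in FGF1 and was not tested. None of the 5 tested OAS genes was called. OAS genes resemble one another, so the division of fragments among them is uncertain.

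IFIT proteins bind viral RNA that lacks host cap marks. Ifit1 measured 4.98, 5.83, 3.29 and 7.25 FPKM in control, 3.28, 3.33, 8.62 and 3.34 in DSS and 4.27, 4.23, 3.66 and 9.05 in FGF1. In DSS and in FGF1, 1 library stood well above the other 3. Ifit3 measured 2.47, 2.41, 3.65 and 3.68 FPKM in control, 2.33, 2.37, 2.87 and 1.03 in DSS and 2.98, 2.73, 4.27 and 5.71 in FGF1. FGF1 3 and FGF1 4 held the highest Ifit3 values and DSS 4 the lowest. Ifit2 was at 2.27 ± 0.855 FPKM in control, 1.09 ± 0.724 in DSS and 1.87 ± 1.03 in FGF1. Its difference between DSS and control was -0.67 ± 0.32 (SE, limma adjusted p = 0.198) and was not called.

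The other antiviral effectors held 2 of the 5 members that fell. BST2, or tetherin, holds budding virions on the cell surface. Bst2 (chromosome 8, 71534255 to 71537456, minus strand, GRCm38) measured 24.6, 22.1, 20.1 and 22.0 FPKM in control, 11.4, 14.6, 10.1 and 15.8 in DSS and 16.5, 15.3, 18.3 and 19.0 in FGF1. All DSS libraries and all FGF1 libraries lay below all controls, and DSS and FGF1 overlapped only through DSS 4 and FGF1 2. Between DSS and control Bst2 fell by 0.74 ± 0.14 on the log2 scale (SE, limma adjusted p = 0.00677), the only one of the 5 calls that was kept without DSS 3 and DSS 4.

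Isg20 encodes an exonuclease that degrades single-stranded RNA. Isg20 (chromosome 7, 78913424 to 78920396, plus strand) measured 14.3, 13.6, 17.1 and 13.6 FPKM in control, 5.51, 10.5, 10.9 and 8.85 in DSS and 14.1, 14.0, 15.2 and 13.2 in FGF1. The DSS libraries lay below all others, with DSS 1 the lowest, and the FGF1 libraries lay within the control range except FGF1 4. Isg20 fell by 0.69 ± 0.17 in DSS (SE, limma adjusted p = 0.0228). That call ended with median-of-ratios scaling (limma adjusted p = 0.0811; 0.0142 to 0.103 over 23 alternatives) and when control 3, control 4 or DSS 4 was left out (up to 0.0678).

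IFITM3 blocks the fusion of viruses with endosomal membranes, and Ifitm3 was among the most abundant members. It measured 68.4, 66.8, 86.0 and 71.2 FPKM in control, 66.9, 61.0, 28.7 and 17.9 in DSS and 50.4, 58.1, 66.8 and 58.3 in FGF1. DSS 1 and DSS 2 were near the controls, and DSS 3 and DSS 4, the libraries with the least endothelial and fibroblast RNA, were far below. The difference of -0.91 ± 0.33 was not called (SE, limma adjusted p = 0.0903) and was -0.18 without DSS 3 and DSS 4 (limma adjusted p = 0.527; 0.0277 to 0.527 over 23 alternatives). It was called when DSS 1 or DSS 2 was left out. Mx1, a dynamin-like GTPase active against influenza virus, measured 4.40, 3.48, 6.87 and 4.96 FPKM in control, 1.23, 4.34, 1.92 and 2.63 in DSS and 4.27, 4.73, 5.96 and 3.54 in FGF1. The DSS groups overlapped the others only through DSS 2, and the difference from control, -0.79 ± 0.26, was not called (SE, limma adjusted p = 0.0623; 0.0184 to 0.865 over 23 alternatives). Leaving out DSS 2 gave a call. Rtp4, at 2.39 ± 0.505 FPKM in control and 1.51 ± 0.583 in DSS, differed by -0.45 ± 0.33 and was not called either (SE, limma adjusted p = 0.409). Samd9l, a restriction factor of poxviruses, ran from 10.3 to 19.2 FPKM, Cmpk2 from 2.42 to 4.23, and Rsad2, which encodes viperin, from 0.517 to 2.95. Mx2 was below 1 FPKM in all libraries but control 4 and FGF1 4.

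The effector score was 2.99 to 3.09 in control, 2.47 to 2.59 in DSS and 2.60 to 2.98 in FGF1. It was lower in every DSS library than in any control, as it was with median-of-ratios scaling (2.38 to 2.68 in DSS, 2.94 to 3.03 in control). DSS and FGF1 were barely separated on the deposited scale and overlapped with that scaling, where the lowest FGF1 library was at 2.60.

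ISG15 is a ubiquitin-like protein that is attached to others during this response, and USP18 removes it. Trim25, a ubiquitin ligase that activates RIG-I, measured 23.8, 29.1, 20.7 and 26.3 FPKM in control, 24.0, 31.8, 16.6 and 21.3 in DSS and 20.2, 18.9, 26.8 and 24.9 in FGF1. Parp12, an ADP-ribosyltransferase, measured 14.7, 16.0, 14.0 and 23.8 FPKM in control, 15.5, 13.5, 17.9 and 15.3 in DSS and 16.2, 16.3, 19.9 and 20.05 in FGF1. Both overlapped between all groups. Trim30a, a mouse ligase that dampens inflammatory signalling (chromosome 7, 104409025 to 104465193, minus strand), measured 1.17, 0.998, 2.17 and 1.33 FPKM in control, 0.727, 0.391, 0.563 and 0.551 in DSS and 0.698, 0.677, 1.15 and 1.41 in FGF1. All DSS libraries lay below all controls. None of the DSS libraries reached 1 FPKM, so Trim30a entered the test only through control and FGF1 libraries. In the fit with no expression filter Trim30a was also called (limma adjusted p = 0.0482). Trim30a fell by 0.62 ± 0.18 (SE, limma adjusted p = 0.0415), the weakest of the 5 calls, and lost it when any of control 1, control 3, control 4, DSS 2, DSS 3, DSS 4 or FGF1 2 was left out (up to 0.111; 0.0363 to 0.195 over 21 alternatives).

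Isg15 itself ran from 3.17 to 11.8 FPKM, with a mean of 5.12 ± 1.09 in control libraries, 5.36 ± 3.01 in DSS libraries and 7.21 ± 3.18 in FGF1 libraries, and its highest values were in FGF1 4 and DSS 3. Parp9 and Dtx3l, whose products form a complex, ran from 10.7 to 17.4 and from 4.52 to 11.3 FPKM. Parp14 ran from 5.19 to 8.78 FPKM. Usp18 was at 0.795 ± 0.220 FPKM in control, 0.514 ± 0.314 in DSS and 0.929 ± 0.524 in FGF1. Trim30a was the only one of the 7 tested genes of this group to be called.

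The GTPases induced by interferon gamma, which attack the vacuoles of intracellular bacteria and parasites, showed the widest gap between DSS and the other libraries of the 8 role groups. Their score was 2.32, 2.40, 2.36 and 2.49 in control, 1.84, 1.84, 1.88 and 1.75 in DSS and 2.08, 2.07, 2.40 and 2.51 in FGF1. DSS lay below both other groups, also with median-of-ratios scaling (1.76 to 1.96 in DSS, 2.26 to 2.43 in control and 2.06 to 2.52 in FGF1). Of the 5 genes 2 were called lower in DSS, against 10.1% of all genes. The role groups were chosen with earlier results of these data known, and the score itself carries no test.

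Gbp2 (chromosome 3, 142620602 to 142638008, plus strand) measured 3.66, 3.87, 6.02 and 5.39 FPKM in control, 1.67, 2.39, 1.72 and 1.37 in DSS and 3.77, 3.21, 5.54 and 4.87 in FGF1. The DSS libraries lay below all others and FGF1 overlapped control. Gbp2 fell by 1.03 ± 0.19 in DSS (SE, limma adjusted p = 0.00643), the largest difference among the 40 tested members on the log2(FPKM + 1) scale. As a ratio of group means, DSS over control, Gbp2 stood at 0.377 and Gbp3 lower, at 0.33. It was not called without DSS 3 and DSS 4, where it was -0.91 (limma adjusted p = 0.0892; 0.00498 to 0.0892 over 23 alternatives).

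Gbp3 (chromosome 3, 142560026 to 142573209, plus strand) measured 1.76, 1.84, 2.03 and 2.35 FPKM in control, 1.41, 0.587, 0.444 and 0.188 in DSS and 0.713, 0.952, 1.43 and 1.64 in FGF1. Both treated groups lay below all controls. Gbp3 fell by 0.90 ± 0.21 in DSS (SE, limma adjusted p = 0.0199). The call ended when control 3, control 4, DSS 3 or DSS 4 was left out (limma adjusted p up to 0.0629), and without DSS 3 and DSS 4 the difference was -0.61 (limma adjusted p = 0.193; 0.00381 to 0.378 over 23 alternatives).

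Irgm1, a regulator of autophagy and of its sister GTPases, measured 17.1, 23.2, 15.8 and 19.7 FPKM in control, 13.7, 13.5, 20.9 and 15.4 in DSS and 18.8, 18.4, 18.2 and 22.4 in FGF1. Igtp measured 5.18, 4.09, 3.99 and 4.74 FPKM in control, 2.66, 3.35, 3.82 and 4.14 in DSS and 4.27, 3.55, 5.57 and 7.35 in FGF1. Neither was called, and their groups overlapped. Gbp7, a neighbour of Gbp3 on chromosome 3, was at 1.21 ± 0.171 FPKM in control, 0.715 ± 0.0654 in DSS and 0.849 ± 0.208 in FGF1. Its DSS and FGF1 libraries all lay below all controls, but it was not called. Gbp7, like Trim30a, reached 1 FPKM in no DSS library and entered the test only through control and FGF1 libraries. Guanylate-binding proteins have near relatives and Igtp overlaps Irgm2 on the same strand, so their shares of fragments are uncertain.

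Of the remaining members, Lgals3bp, a secreted binding partner of galectin-3, was the most abundant of the 44. It measured 86.8, 101, 49.1 and 82.8 FPKM in control, 157, 61.7, 68.1 and 60.1 in DSS and 103, 99.0, 75.2 and 87.9 in FGF1. DSS 1 was the highest of the 12 libraries, and the other 3 DSS libraries lay between control 3 and the other controls. Ifi27, a mitochondrial protein, measured 30.8, 45.6, 49.0 and 49.2 FPKM in control, 23.0, 33.8, 24.3 and 28.5 in DSS and 46.2, 21.2, 37.1 and 22.3 in FGF1. DSS and control overlapped through control 1 and DSS 2, and FGF1 split into 2 higher and 2 lower libraries. The Ifi27 difference of -0.64 ± 0.24 between DSS and control was not called (SE, limma adjusted p = 0.107). Xaf1, which promotes cell death by binding an inhibitor of caspases, was at 3.89 ± 1.02 FPKM in control, 2.45 ± 0.451 in DSS and 4.14 ± 0.584 in FGF1, a difference of -0.49 ± 0.16 in DSS (SE, limma adjusted p = 0.0702). Ifi44 stayed at or under 0.537 FPKM.

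**Figure D3:**
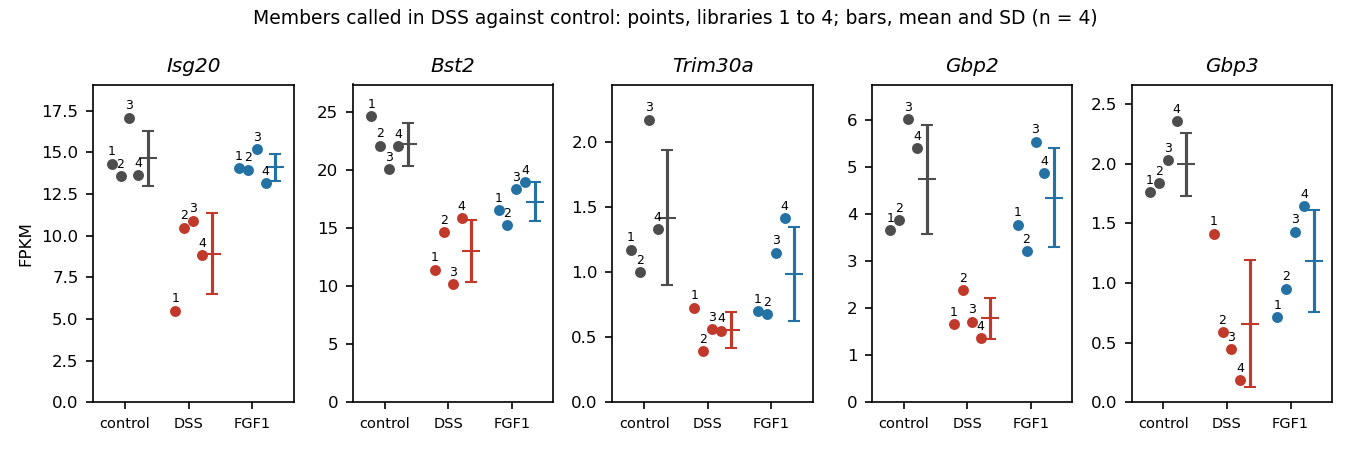
FPKM (vertical axis, from 0) of the 5 members called in DSS against control; points are libraries 1 to 4 of each group, bars the mean and SD (n = 4). Every DSS library lies below every control library for these genes, and Gbp2 and Isg20 are the 2 whose FGF1 libraries all lie above DSS.

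Libraries did not overlap between DSS and control for 6 members, the 5 called and Gbp7, all lower in DSS, against 13.3% of all genes lower and 3.67% higher (16.9% in either direction). Of these 6 members lower in DSS, Trim30a and Gbp7 passed the filter only through control and FGF1 libraries. Markers of cell types of the colon wall moved in the same direction. Of 9 tested macrophage markers 7 fell, among them Csf1r, C1qa and Lyz2, and the sum of all 10 was 84.3 to 143 FPKM in control, 20.2 to 45.3 in DSS and 33.3 to 107 in FGF1. All 8 endothelial markers fell (summed level 44.7 to 57.7, 4.06 to 26.3 and 16.1 to 31.2 FPKM in the same order), as did all 8 fibroblast markers (228 to 354, 12.7 to 82.5 and 70.4 to 208). Smooth muscle markers fell in 3 of 8 cases (summed level 2149 to 6863, 468 to 1638 and 982 to 6383 FPKM), and B and plasma cell markers in 3 of 5 tested (814 to 2368, 45.1 to 110 and 126 to 501). Of 10 epithelial markers 1 rose, Lgals4. None of 5 T and NK cell markers (5.40 to 19.5, 6.01 to 20.8 and 7.54 to 24.8) was called, none of 2 neutrophil markers and not the 1 dendritic cell marker tested. The 10 dendritic markers summed to 3.12 to 4.99 FPKM in control, 0.885 to 1.71 in DSS and 1.61 to 4.00 in FGF1, with Siglech at 0 in every DSS library. The 7 listed neutrophil markers summed to 0.264 to 4.30, 2.37 to 136 and 4.23 to 15.3, with S100a9 at 0 in 3 controls. The macrophage marker Adgre1 was at 0 in DSS 3 alone. The part of these cell types in the levels of Gbp2, Gbp3, Bst2, Isg20 and Trim30a was not tested.

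**Figure D4:**
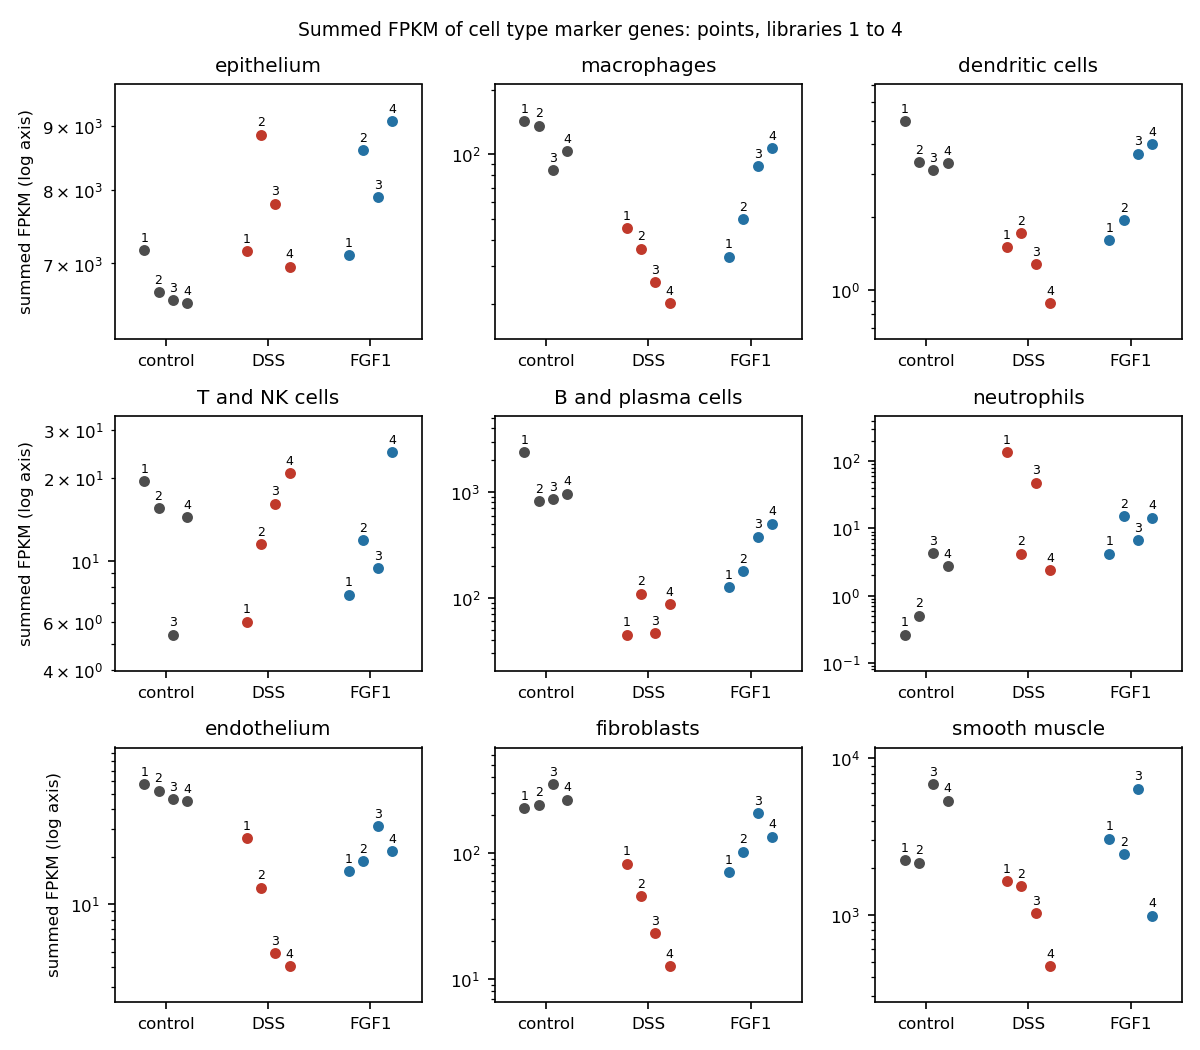
Summed FPKM (vertical log axis) of marker genes of 9 cell types of the colon in each library; points are libraries 1 to 4. Macrophage, endothelial and fibroblast markers are lower in every DSS library than in any control, while T and NK cell markers overlap between the groups.

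The rest of the interferon pathway was followed with a further list of 82 genes, of which 75 were in the table and 63 were tested in each comparison. Of 8 interferon ligand genes only Ifng had a listed value, at 0 in all 4 controls and at most at 0.0668 FPKM in any library. The table holds only transcripts that enter a structure event and a listed 0 can be a failed estimate, so these values do not show how much interferon RNA was present. Of 10 genes of receptors and kinases, 1 fell in DSS, and 0 were called in the fit with no expression filter. Ifnar2, a subunit of the type I receptor, stood at 7.97 ± 1.14 FPKM (SD, n = 4) in control, against 4.73 ± 0.546 in DSS and 4.84 ± 1.73 in FGF1 (DSS against control -0.64 ± 0.19, SE, limma adjusted p = 0.0483). Ifngr1, a subunit of the interferon gamma receptor, measured 36.3, 46.3, 34.1 and 45.2 FPKM in control and 91.1, 61.1, 55.2 and 45.9 in DSS (0.60 ± 0.20, SE, limma adjusted p = 0.0658) and was not called. Ifnar1, Ifngr2, Ifnlr1, Il10rb, Jak1, Jak2 and Tyk2 were not called either.

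Of 11 tested genes of upstream sensing, 1 fell: Irf5, a transcription factor downstream of Toll-like receptors, from 2.24 ± 0.427 to 0.772 ± 0.582 FPKM (-0.93 ± 0.27, limma adjusted p = 0.0446). Of 10 pathway inhibitors, 1 rose: Ptpn2, a phosphatase that acts on JAK and STAT proteins, from 15.3 ± 1.43 to 20.9 ± 1.57 FPKM (0.42 ± 0.10, limma adjusted p = 0.0215). Of 32 further interferon-stimulated genes, 4 fell and 0 rose. Ifi27l2a fell from 33.0 ± 14.9 to 7.21 ± 3.12 FPKM (-2.02 ± 0.31, limma adjusted p = 0.00368), more than any of the 44 members. Slfn5 fell from 1.47 ± 0.305 to 0.345 ± 0.115 (limma adjusted p = 0.00505), Gbp4 from 1.32 ± 0.101 to 0.451 ± 0.133 (0.0121) and Tor3a from 10.99 ± 1.03 to 7.18 ± 0.716 (0.0131). In all, 6 of 63 fell and 1 rose, against 10.1% and 2.23% of all genes.

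FGF1 was next compared with DSS, the contrast nearest to the design's question about supplying the factor. Limma called 0 of the 40 members, against 0.0557% of all genes (7 of 12578), 0.0398% higher and 0.0159% lower. At an unadjusted p under 0.05, 7 members were higher in FGF1 and 0 lower, against 8.7% and 3.71% of all genes (12.4% in either direction). The median log2 fold change of the members was 0.20, against 0.05 over all genes, and 34 of 40 lay above 0 while 41.3% of all genes lay below it. With median-of-ratios scaling 33 of 40 lay above 0, while 52.5% of all genes lay below it. This comparison and the previous one share the DSS libraries, so a member that is low there tends to differ in opposite directions in both.

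On the log2(FPKM + 1) scale Gbp2 again had the largest difference, 0.93 ± 0.19 (SE, limma adjusted p = 0.0833), with a mean in FGF1 2.44 times that in DSS. Mx1 differed by 0.73 ± 0.26 (limma adjusted p = 0.269), Ifit3 by 0.64 ± 0.24 (0.298), Isg20 by 0.64 ± 0.17 (0.155), Ifitm3 by 0.59 ± 0.33 (0.494) and Xaf1 by 0.58 ± 0.16 (0.182). None of the 6 was called. Gbp2, Isg20, Xaf1 and Irf1 were higher in every FGF1 library than in any DSS library, and 0 members were lower in this way, against 4.45% and 1.83% of all genes (6.28% in either direction). Ifitm3 turned to -0.13 without DSS 3 and DSS 4 (limma adjusted p = 0.839; 0.191 to 0.839 over 23 alternatives). Dhx58 stood at 1.94 ± 0.495 FPKM in FGF1 and 2.61 ± 0.274 in DSS, the largest difference in the other direction, also not called. Of the 63 tested pathway genes and the 56 tested markers, 0 were called.

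**Figure D5:**
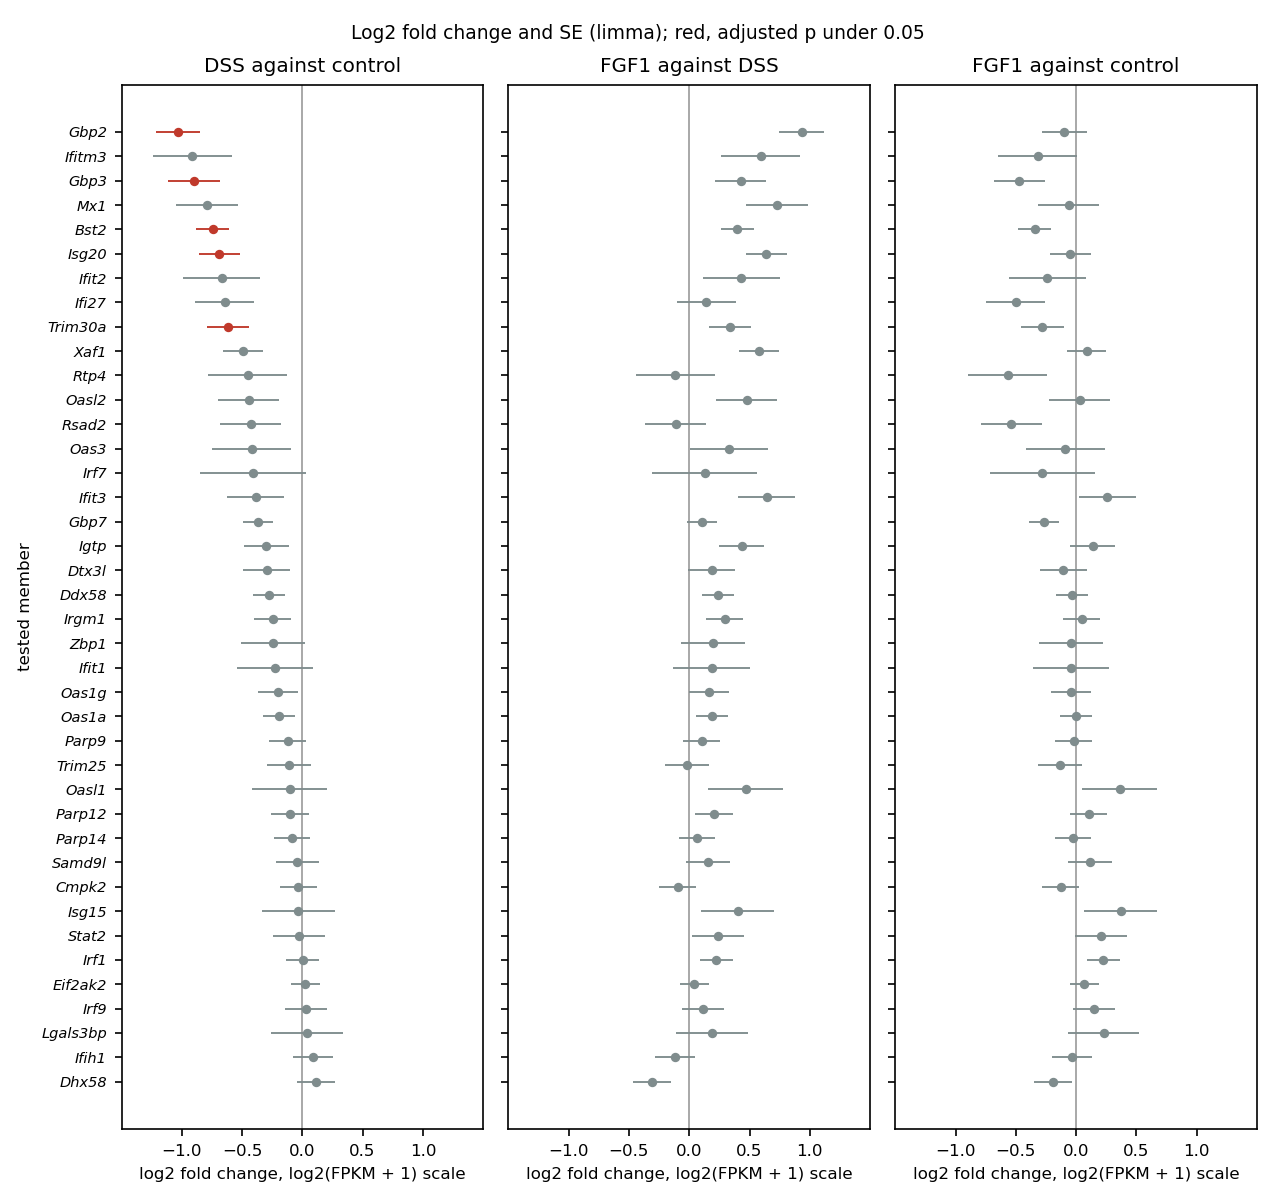
Log2 fold change and SE (horizontal axis, log2(FPKM + 1) scale) of the 40 tested members in the 3 comparisons, in order of the difference between DSS and control; red marks an adjusted p under 0.05. The 5 red points are all in the left panel, and most points of the middle panel lie above 0.

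FGF1 against control asks whether the FGF1 libraries differ from the control libraries. Limma called 0 of the 40 members, against 0.0795% of all genes (10 of 12578), 0.00795% higher and 0.0716% lower. At an unadjusted p under 0.05, 2 members were lower and 0 higher, against 9.91% and 4.02% of all genes (13.9% in either direction). The median log2 fold change of the members was -0.04, equal to that of all genes at this rounding, and it was 0.02 with median-of-ratios scaling, as was that of all genes. On the log2(FPKM + 1) scale the largest differences were those of Rtp4 (-0.57 ± 0.33, SE, limma adjusted p = 0.475), Rsad2 (-0.54 ± 0.25, 0.371), Ifi27 (-0.50 ± 0.24, 0.391), Gbp3 (-0.47 ± 0.21, 0.345), Isg15 (0.37 ± 0.30, 0.64) and Oasl1 (0.36 ± 0.31, 0.658). Rtp4 measured 0.0221 FPKM in FGF1 1 and 1.76 to 2.31 in the other 3 FGF1 libraries. Bst2, Gbp3, Rsad2 and Gbp7 were lower in every FGF1 library than in any control, and 0 members were higher in this way, against 6.61% and 3.66% of all genes (10.3% in either direction). A p that misses the threshold does not show that FGF1 and control had equal levels of these genes.

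Sums over transcripts hide shifts between transcripts of 1 gene. Of 200 annotated member transcripts, 153 were listed, 8 members had a single listed transcript, and 19 held over 90% of their FPKM in 1. For Gbp2 the only listed transcript was protein-coding, and for Bst2 the main one held 99.1% of the FPKM. Among listed transcripts, their differences thus hardly depend on which is taken. Only 1 of 2 annotated Gbp2 transcripts was listed, so the other could not be examined. Gbp3 was divided among Gbp3-202, Gbp3-203 and others, with Gbp3-203 listed in control 2, control 4, FGF1 2 and FGF1 3 and at 0 in every DSS library, and the call was lost on its most abundant transcript alone (-0.54, limma adjusted p = 0.378).

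Isg20-201 was at 9.84 to 11.7 FPKM in control and 5.08 to 10.1 in DSS, and Isg20-203 at 1.28 to 4.32 and 0.191 to 1.38. Lgals3bp-201 and Lgals3bp-205, both protein-coding, exchanged places: Lgals3bp-205 was at 125 FPKM in DSS 1 and 61.1 to 87.3 in FGF1 1 to FGF1 3, where Lgals3bp-201 was at 30.6 and at 13.6 to 15.7, and at most at 2.40 elsewhere. Irgm1-202 was at 0.997 FPKM in DSS 2 and 0.833 in FGF1 1, where Irgm1-201 was at 12.4 and 17.9, against 9.54 to 15.8 and 3.04 to 7.39 in the other libraries. Oasl1-203, a transcript annotated as non-coding, was listed only in control 2, control 3, FGF1 3 and FGF1 4, at 3.54 to 6.74 FPKM. Rsad2-201, which encodes viperin, was listed at 0 in DSS 1, DSS 2, FGF1 2 and FGF1 3, where the gene's FPKM lay in Rsad2-202, annotated to nonsense-mediated decay. Most of the Mx1 sum came from transcripts that are not annotated as protein-coding: 78.6% in control, 88.0% in DSS and 68.6% in FGF1. The same held for Ddx58, at 63.1% in control, 68.7% in DSS and 77.6% in FGF1, and for Mx2, at 100% in each group. For Mx2 this share did not differ between the groups, so it is no shift. Whether the differences between libraries or groups lie in the RNA or in the division of fragments among overlapping transcripts was not tested.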

How the data were processed

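Polyadenylated RNA of colon was sequenced in 12 libraries. Listed without role or order, per the submitters' processing notes, are StringTie 1.3.4d, HISAT2 2.0.4, edgeR, cutadapt 1.9 and the build GRCm38. The values are FPKM deposited by the authors per transcript, in a table of transcript structure events; transcripts outside events are not listed, and whether counting used strand is not given in the sources used here. FPKM hold no read counts, so depth and counting error are unknown and no count model was run. Gene symbols, coordinates and transcript types came from GENCODE vM21; promoters from RefSeq.

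A gene's value was the sum of FPKM over its distinct transcripts. Genes that reached 1 FPKM in 4 or more libraries entered limma 3.58.1 under R 4.3.3 (trended empirical Bayes, two-sided) on log2(FPKM + 1), 1 model for all 12 libraries, with Benjamini-Hochberg adjustment over all genes tested. The model was also run on simulated data in which genes varied independently. That run does not show how tissue makeup shared by the genes of a library affects the calls. Named with fold changes are the members called in a comparison and the 6 uncalled ones with the largest difference; values in every library are given for called members and the 2 most abundant of each role group, and for Mx1 and Ifngr1, chosen after their values were seen. The members, role groups, pathway and marker lists were chosen with earlier results of these data known. Alternatives varied pseudocount, filter, scaling, gene value, libraries and a replicate block.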

Additional observations from a re-analysis of the deposited data

Results flagged for a closer look

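In each group of 4 libraries, the gap between the highest or lowest value and its nearest neighbour was compared with the group's range (Dixon's test at 95%). Of 159 groups tested over the members and the library scores, 9 had such a library, and chance flags about 1 in 20. Eif2ak2 was at 6.94 FPKM in DSS 1, and the other DSS libraries were at 5.58 to 5.70. Oas1a was at 28.8 FPKM in control 4 and at 22.6 to 23.1 in the other controls. Oas3 was at 3.00 FPKM in DSS 2 and at 0.488 to 0.604 in the other DSS libraries. Ifit1 was at 8.62 FPKM in DSS 3 against 3.28 to 3.34, and at 9.05 in FGF1 4 against 3.66 to 4.27. Rtp4 was at 0.0221 FPKM in FGF1 1 against 1.76 to 2.31; its main transcript was listed at 0 there. Irgm1 was at 22.4 FPKM in FGF1 4 against 18.2 to 18.8. Ifi27 was at 30.8 FPKM in control 1 against 45.6 to 49.2. Lgals3bp was at 157 FPKM in DSS 1 against 60.1 to 68.1, most of it in Lgals3bp-205.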

How the results depend on the processing

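Over 23 alternatives, 0 members were called higher in DSS than in control and 0 were called in either FGF1 comparison. The number called lower in DSS, 5 in the analysis as reported, was 2 with start-event sums (29 members tested), 2 with each gene's most abundant transcript, 3 with the 2 groups fitted alone, 4 with median-of-ratios scaling, 1 without DSS 3 and DSS 4 and 2 without control 3 and FGF1 3, and 2 to 6 when 1 library was left out. Bst2 kept its call in all 22 alternatives that tested it. Gbp2 lost it in 1 of 23, Gbp3 in 8 of 23, Isg20 in 9 of 23 and Trim30a in 11 of 21. Uncalled values that changed sign were those of Ifit2 in DSS against control with start-event sums (0.256, limma adjusted p = 0.805), Mx1 there with the most abundant transcript (0.0788, 0.865) and Ifitm3 in FGF1 against DSS without DSS 3 and DSS 4 (-0.134, 0.839). The cause was not tested.

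Of all genes, DSS against control called 1549, and 727 with start-event sums, 844 with the most abundant transcript, 185 without DSS 3 and DSS 4, 915 without control 3 and FGF1 3, and 697 to 1982 on leaving out 1 library. FGF1 against DSS called 7, and 3 with a mean filter, 15 with median-of-ratios scaling, 1 with start-event sums, 3 with 2 groups alone, 0 without DSS 3 and DSS 4, 2 without control 3 and FGF1 3, and 0 to 43 on leaving out 1 library. FGF1 against control called 10, and 0 with a pseudocount of 0.1, 1 with 0.5, 50 with no filter, 1 with start-event sums, 38 with 2 groups alone, 38 without DSS 3 and DSS 4, 20 without control 3 and FGF1 3, and 0 to 83 on leaving out 1 library. The FPKM values give no read counts, so what depth limits is unknown.

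The labels number the libraries 1 to 4 in each group and do not say whether equal numbers belong together. Residual correlations of same-numbered libraries ran from -0.192 to -0.0684 between control and DSS and from -0.0725 to 0.399 between control and FGF1. Between DSS and FGF1 they ran from -0.217 to 0.119. In these 3 pairs of groups, 0, 1 and 0 of 4 libraries correlated best with their own number. The value of 0.399 was that of control 3 and FGF1 3. With 4 libraries in a group, these values cannot settle whether same-numbered libraries share an origin. With a replicate block, 4 members were called lower in DSS (Gbp2, Isg20, Xaf1 and Bst2) and 0 higher, and 1028, 2 and 1 of all genes were called in the 3 comparisons.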
